A study of Homo sapiens with 32 samples.

Results

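The genes described here are 39 genes of amino acid supply and of the stress response run by the transcription factor ATF4. They were listed by symbol for their known roles, and all 39 were found among the 28278 gene symbols of the count tables and among the 60199 Ensembl genes of the knockdown table. By role, 5 make serine and 1-carbon units, 3 make asparagine or proline, 7 are stress transcription factors, 6 are stress effectors, 6 carry amino acids across the membrane and 12 charge or export tRNA. Their RNA was measured in cell lines of Ewing sarcoma, a tumour driven by the fusion protein EWS::FLI1, with and without STAG2, a subunit of the cohesin complex that folds chromatin into loops. The same series holds A673 cells without STAG1, the alternative cohesin subunit, and without EZH2 or SUZ12, both subunits of the Polycomb complex PRC2. The question put to these genes is how far each loss moves them from its own controls, and how far clones of 1 genotype differ from each other.

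Of the 32 libraries, 22 are A673 clones in experiments 1 to 3. Experiment 1 has 2 libraries of a WT clone, 1 of the parental line and 2 of STAG2 KO clones, numbered 5 and 24 in the deposited table. Experiment 2 has 2 WT clone libraries, 1 parental library, and 3 libraries each of STAG2 KO (numbers 3, 5 and 2), EZH2 KO and SUZ12 KO clones. Experiment 3 has 1 WT clone library, 1 parental library and 3 STAG1 KO libraries, numbered 1, 5 and 7. The WT clone carries an inducible Cas9 at the AAVS1 locus, and all KO clones were derived from it, so all edited lines share 1 founder. Numbers 5 and 24 of experiment 1 and 1, 5 and 7 of experiment 3 are those of the deposited columns and differ from the clone numbers in the sample titles (1 and 4, and 1, 2 and 3), so these libraries were assigned to their group only. Number 5 occurs in both experiments 1 and 2, and these were taken as separate libraries. Experiment 4, also in A673 cells, compares 3 mock transfections (siC) with 3 transfections of an siRNA against STAG2 (siSTAG2). SK-N-MC, which expresses STAG2, has 1 library as WT and 1 as a STAG2 KO clone. A4573 lost STAG2 by its own mutation; it has 1 library as such (labelled WT) and 1 of a knock-in clone (KI) with STAG2 restored. Totals were 15734628 to 20663679 counts in the A673 clones and 29322507 to 32261248 in the isogenic pairs, and 6852340 to 8184632 reads were recovered from the deposited knockdown values. Levels are in CPM, read counts scaled to library size with edgeR's TMM factors, or in experiment 4 the deposited normalized signal.

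ATF4 sits at the end of the integrated stress response. When amino acids run short, or the endoplasmic reticulum (ER), heme or viral RNA signals stress, kinases phosphorylate the translation factor eIF2, general protein synthesis drops, and ATF4 mRNA is translated more. ATF4 protein, often paired with a C/EBP factor, then switches on genes for amino acid synthesis, uptake and tRNA charging, and with long stress also DDIT3 (CHOP), TRIB3 and CHAC1. Because much of its control is at translation, ATF4 mRNA need not follow ATF4 activity.

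The edited genes were read first, as a check of the labels. STAG2 was at 293, 301 and 281 CPM in the controls of experiment 1 (WT clone, WT clone, parental line) and at 42.2 and 183 CPM in STAG2 KO libraries 5 and 24. In experiment 2 it was at 296, 358 and 255 CPM in the controls and 68.9, 59.2 and 63.4 CPM in STAG2 KO libraries 3, 5 and 2. All 5 KO libraries lay below all 6 controls, but number 24 kept the most STAG2 mRNA, and the fitted log2 fold change was -1.81 (SE 0.319, edgeR adjusted p = 0.00424). EZH2 was at 171, 176 and 193 CPM in the controls and 45.5, 54.9 and 28.3 CPM in the EZH2 KO clones, a log2 fold change of -1.98 (SE 0.203, edgeR adjusted p = 0.000137). SUZ12 was at 59.9, 66.6 and 60.5 CPM in the controls and 15.8, 11.3 and 20.5 CPM in the SUZ12 KO clones, a log2 fold change of -1.90 (SE 0.233, edgeR adjusted p = 0.000299). These groups did not overlap either. STAG1 was at 57.4 and 69.1 CPM in the WT clone and the parental line of experiment 3, and at 61.1, 14.99 and 33.0 CPM in STAG1 KO libraries 1, 5 and 7. The library labelled STAG1 KO, number 1, is thus at the level of the controls. The fold change did not pass the test, at -0.80 (SE 0.510, edgeR adjusted p = 0.376). Protein was not measured in these files. The paper shows immunoblots of its A673 STAG1 and STAG2 clones and of its SK-N-MC and A4573 clones. Which of those A673 clones the libraries of experiments 1 and 3 are could not be settled. The members' results with and without STAG1 KO library 1 are given below. STAG2 signal fell from 1068, 992 and 1089.7 in siC to 144, 179.9 and 153 in siSTAG2, a log2 fold change of -2.72 (SE 0.0854, limma adjusted p = 4.01e-18). STAG2 was at 34.1 CPM in A4573 and 86.9 CPM in its KI clone, and at 293 CPM in SK-N-MC and 184 CPM in its KO clone, so mRNA was still present in that clone.

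Markers of other cell types were low in the A673 clones. Over the 22 libraries, 5 leukocyte markers summed to at most 1.49 CPM, 4 epithelial markers to at most 3.16 CPM and 4 endothelial markers to at most 7.35 CPM. The most abundant of these was most often CD14 among leukocyte markers and EPCAM among epithelial ones. PECAM1 or KDR led the endothelial ones in most libraries. In each A673 clone library 1 to 3 leukocyte markers, 1 to 4 epithelial and 0 to 2 endothelial markers were at 0. Endothelial sums were 1.76, 2.23 and 1.22 CPM in the controls of experiment 2. They were 4.02, 2.55 and 3.46 CPM in the EZH2 KO and 3.10, 7.35 and 3.60 CPM in the SUZ12 KO clones. In experiment 3 they were 1.51 CPM in the WT clone, 1.55 CPM in the parental line and 7.20, 2.34 and 4.31 CPM in STAG1 KO libraries 1, 5 and 7. Their part in the members' changes was not tested. Ewing sarcoma markers summed to 751 to 1605 CPM, led by PRKCB, LIPI or NR0B1; of the 8, only CD99 was at 0, in all 26 libraries of the count tables, while it led the markers in all 6 knockdown libraries. The SK-N-MC pair differs here: leukocyte markers summed to 4.34 CPM in WT and 59.0 CPM in the KO clone, almost all of it PTPRC at 3.004 and 58.2 CPM, and epithelial markers to 1.24 and 11.1 CPM, led by EPCAM at 0.819 and 9.36 CPM. All 4 epithelial markers were above 0 in that clone and 1 leukocyte marker was at 0. In A4573 neither sum passed 2.07 CPM, and in the knockdown none of the 3 sums passed a signal of 3.81. The Ewing sarcoma markers there summed to 12525.9, 11731.5 and 12391.8 in siC 1, 2 and 3 and to 8307.66, 8738.52 and 8864.25 in siSTAG2 1, 2 and 3. In bulk RNA, fewer cells of a type and less RNA per cell cannot be told apart.

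Promoters of the members were searched for the letters of an ATF4 element. Because the members were listed for known roles, many of them under ATF4, the share with a match describes the list and is not independent of that choice. ATF4 with a C/EBP partner binds composite elements with a TGATG core, and the letters TGATGNAA were searched on both strands from 250 bases before to 50 bases after each RefSeq start (300 bases, GRCh38.p14). Windows were found for 32 of the 39 members, and 15 of these (46.9%) held a match, against 4.46% of 27305 genes and 3.62% of 35116 windows. Matches lay in 7 of 11 members for tRNA charging and export, 3 of 4 transporters, 3 of 6 transcription factors and 1 of 6 stress effectors, CHAC1. A match is a description of letters, not of a bound site. PSPH, SHMT2, PYCR1, NUPR1, SLC7A11, SLC7A3 and LARS1 are named only.

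Stretches around the match are shown for 6 members that recur below, an enzyme, an effector, 2 transcription factors, a transporter and a tRNA synthetase, so that the letters can be read in their place; the search itself fixed all but 1 of the letters in capitals. Each is read 5′ to 3′ on the gene's own strand with the match in capitals; where the capitals end in ATCA, the match is on the opposite strand. They are ASNS (chr7:97872439-97872506, minus strand), CHAC1 (chr15:40953232-40953299, plus), ATF3 (chr1:212565186-212565253, plus), CEBPG (chr19:33374041-33374108, plus), SLC1A5 (chr19:46784874-46784941, minus) and AARS1 (chr16:70289656-70289723, minus). A start used here need not be the outermost start of the gene. SLC1A5 is annotated at chr19:46774883-46788594, so its stretch lies well inside the gene. Those of ASNS, CHAC1 and CEBPG also lie within their annotated genes.
ASNS: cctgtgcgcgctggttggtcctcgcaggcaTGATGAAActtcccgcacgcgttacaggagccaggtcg
CHAC1: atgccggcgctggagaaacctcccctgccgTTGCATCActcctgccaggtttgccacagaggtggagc
ATF3: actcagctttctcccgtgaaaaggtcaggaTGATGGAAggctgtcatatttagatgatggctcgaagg
CEBPG: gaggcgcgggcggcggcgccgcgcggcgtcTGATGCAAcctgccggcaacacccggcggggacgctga
SLC1A5: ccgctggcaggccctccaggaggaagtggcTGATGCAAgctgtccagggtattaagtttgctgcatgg
AARS1: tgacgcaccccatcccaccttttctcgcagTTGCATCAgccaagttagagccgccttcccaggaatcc
The CEBPG, CHAC1, SLC1A5 and AARS1 matches share the letters TGATGCAA on 1 strand or the other, ASNS has TGATGAAA and ATF3 has TGATGGAA.

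Exons of some members overlap other genes, and in non-directional libraries reads of both are hard to assign. ASNS (chr7:97851677-97872542, minus strand) shares 49.3% of its exonic bases with a long non-coding RNA annotated on the same strand. The CPM of ASNS may thus be an undercount that depends on the annotation used. That RNA is not listed in the count tables, and loss of reads to it was not tested. DDIT3 (chr12:57516588-57521737, minus) shares 27.2% with MARS1 and MTHFD2 11.6% with SLC4A5, both on the opposite strand. SLC1A5 shares 23.4%, PYCR1 15.6% and CEBPB 12.6% with long non-coding RNAs on the opposite strand. NUPR1 shares 16.5% with a long non-coding RNA on the same strand, and PYCR1 also 14.1% with MYADML2 on the same strand. Of the edited genes, STAG1 shares 21.2% with PCCB.

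The members differed between control cells before any gene was removed. All 3 controls of experiment 1 lay above all 3 controls of experiment 2 for 35 of the 39 members, where 27.4% of all genes did so, and below them for 1, ALDH18A1, where 29.4% of genes did. The median difference was 0.91 on the log2 scale over the members and 0.00 over all genes tested, and 13 members were more than 2-fold higher in experiment 1, against 10.5% of genes. TRIB3, a pseudokinase that feeds back on ATF4, was at 475, 469.9 and 275 CPM in experiment 1 and 29.1, 23.2 and 42.7 CPM in experiment 2, a ratio of means of 12.9. The controls of experiment 3 lay between, at 158 and 162 CPM. DDIT4, an inhibitor of mTORC1, was at 107, 109 and 216 CPM in experiment 1 and 16.03, 14.6 and 12.8 CPM in experiment 2, with a ratio of 9.94. The ratio was 8.95 for CHAC1, which degrades glutathione, 7.76 for SESN2, a leucine sensor, and 6.02 for the asparagine synthetase ASNS. All 6 stress effectors were more than 2-fold apart, with a median log2 difference of 3.01. ATF4 itself (chr22:39519695-39522683, plus strand) was at 638, 647 and 644 CPM against 579, 504 and 477 CPM, also without overlap but with a ratio of only 1.24. Of 24 other ATF4 pathway targets, 12 were more than 2-fold higher in experiment 1, with a median of 1.03, while medians were -0.05 for 14 genes of eIF2 and its kinases, -0.32 for 9 other cytosolic tRNA synthetases, -0.56 for 14 ER chaperone genes and -0.72 for 10 NRF2 targets of the oxidative stress response. The WT clone and the parental line were controls in both experiments, and for those 35 members both lay higher in experiment 1. What set the experiments apart was not tested. KO clones are therefore compared with the controls of their own experiment.

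**Figure D1:**
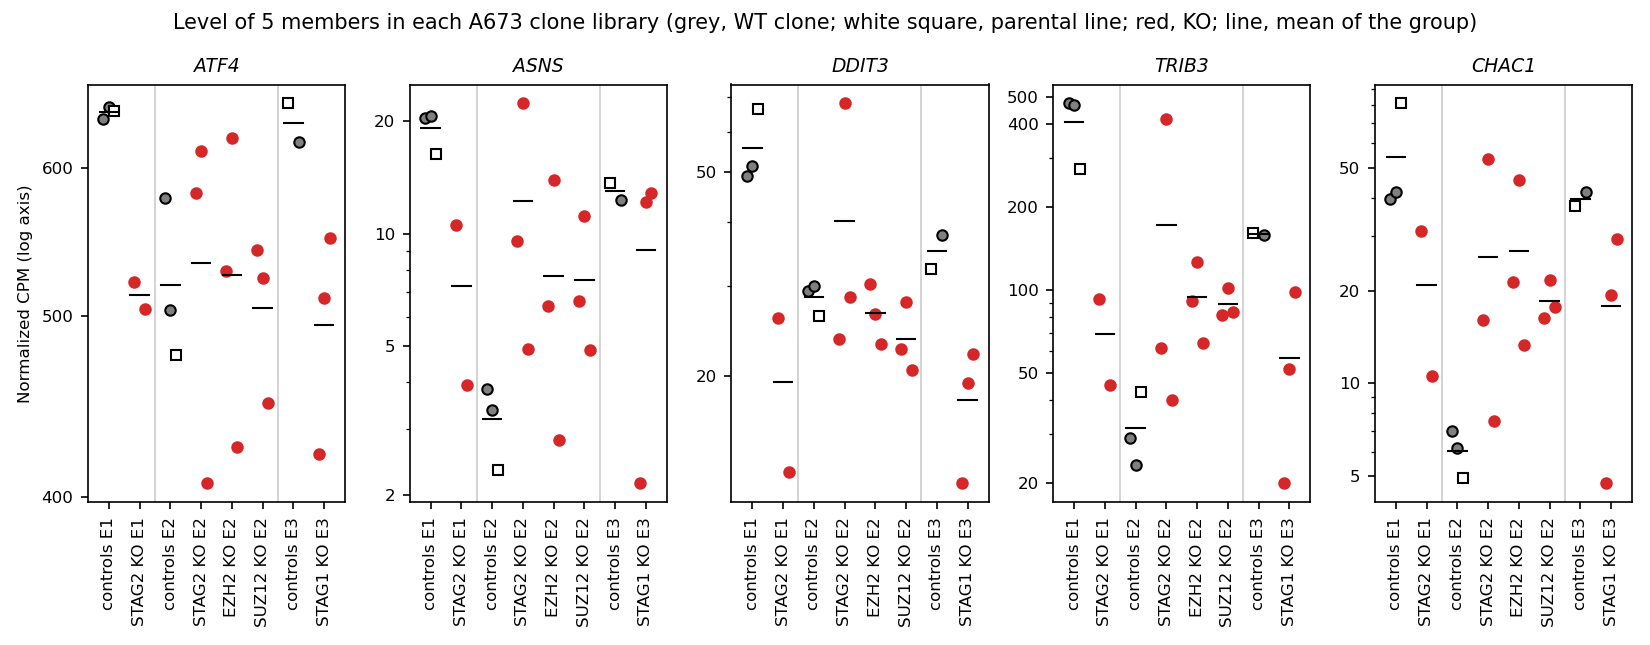
Normalized CPM on a log axis of ATF4, ASNS, DDIT3, TRIB3 and CHAC1 in each A673 library of experiments 1 to 3 (E1 to E3), with WT clone libraries as grey circles, the parental line as white squares, KO clones as red circles and a line at each group's mean. TRIB3 means were 407 CPM in the controls of experiment 1, 31.6 in experiment 2 and 159.7 in experiment 3, and STAG2 KO library 5 of experiment 2 stood at 417 CPM.

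Over both experiments, STAG2 KO moved no member past the test. With experiment as a term in the fit, edgeR called 0 of 39 members at an adjusted p under 0.05, where 12.4% of all genes tested were called (1687 of 13574). At an unadjusted p under 0.05 there were 3 (26.6% of all genes), ALDH18A1, PYCR1 and SLC7A5, and DESeq2 called 2, PYCR1 and SLC7A5, with 16.6% of the genes it gave an adjusted p. The median log2 fold change was 0.08 over the members and 0.04 over all genes. Values by experiment follow, since members lay on opposite sides of the controls in each.

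ATF4 was at 521 and 504 CPM in STAG2 KO libraries 5 and 24 of experiment 1, below all 3 controls, and at 582, 613 and 407 CPM in libraries 3, 5 and 2 of experiment 2, where numbers 3 and 5 lay above and number 2 below all 3 controls. Its pooled log2 fold change was -0.08 (SE 0.137, edgeR adjusted p = 0.783). ASNS was at 20.5, 20.7 and 16.4 CPM in the controls and 10.6 and 3.94 CPM in the KO libraries of experiment 1, and at 3.85, 3.38 and 2.33 CPM in the controls and 9.55, 22.3 and 4.91 CPM in the KO libraries of experiment 2. It was thus lower than all controls in both KO libraries of experiment 1 and higher in all 3 of experiment 2, and the pooled value was 0.63 (SE 0.740, edgeR adjusted p = 0.649). DDIT3, the factor CHOP that promotes cell death under long stress, was at 49.1, 51.4 and 66.5 CPM in the controls and 25.9 and 12.9 CPM in the KO libraries of experiment 1. In experiment 2 it was at 29.3, 29.9 and 26.2 CPM in the controls and 23.6, 68.1 and 28.5 CPM in the KO libraries, where number 5 stood above and number 3 below all controls, with a pooled value of -0.30 (SE 0.448, edgeR adjusted p = 0.735). TRIB3 (chr20:362835-397559, plus strand) was at 92.9 and 45.4 CPM in the KO libraries of experiment 1, below all controls, and at 61.7, 417 and 39.9 CPM in those of experiment 2, where number 2 fell within the controls. Its pooled value was 0.70 (SE 1.25, edgeR adjusted p = 0.783). CHAC1 (chr15:40952962-40956512, plus strand) was at 39.5, 41.9 and 80.9 CPM in the controls and 31.1 and 10.6 CPM in the KO libraries of experiment 1, and at 7.02, 6.18 and 4.93 and 16.01, 53.6 and 7.56 CPM in experiment 2, with a pooled value of 0.73 (SE 0.832, edgeR adjusted p = 0.64). The signs of ASNS, TRIB3 and CHAC1 are those of library 5 of experiment 2: without it the pooled values were -0.013, -0.74 and -0.14, while DDIT3 turned positive, to 0.10, without library 24 of experiment 1. Without library 5 of experiment 2, 5 members were called (AARS1, ALDH18A1, CEBPB, PYCR1 and SLC3A2), where 29.6% of genes were (4048); without the parental library of experiment 2, 1 was (PYCR1, with 10.6% of genes), and without library 3 of that experiment, 1 (SLC7A5, with 8.89%). The count over all genes was 1053 (7.82%) without WT clone library 1 of experiment 2.

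Within experiment 1, edgeR called 15 members lower in STAG2 KO, against 13.9% of all genes, and 1 higher, against 12% of genes. The 2 WT clone libraries among its 3 controls differed by little more than counting error (mean chi-square per gene 1.33), and that test counts them as separate replicates. With them summed, an alternative chosen after seeing the data, 4 members were called, CEBPB, DDIT4, STC2 and TRIB3, all lower, where 5.08% of genes were called, and the other 12 calls were lost. Leaving out either WT clone library gave the same 4 (4.51% and 4.08% of genes). Without library 24, 3 were called (CEBPB, PYCR1 and SLC7A5, with 7.62% of genes), and without the parental library or library 5 there were 21 and 22 (39% and 31.4% of genes). At an unadjusted p under 0.05 there were 28 members with all libraries, where 44.7% of genes were, and the median log2 fold change was -0.58 against -0.02 over all genes. With all 5 libraries DDIT4 changed among the stress effectors by -3.14 (SE 0.584, edgeR adjusted p = 0.0191), TRIB3 by -2.55 (SE 0.405, edgeR adjusted p = 0.0137), SESN2 by -1.74 (SE 0.433, edgeR adjusted p = 0.036) and STC2, a secreted glycoprotein, by -1.55 (SE 0.258, edgeR adjusted p = 0.0155). Among transcription factors DDIT3 fell, at -1.51 (SE 0.324, edgeR adjusted p = 0.0255), as did CEBPB at -1.16 (SE 0.156, edgeR adjusted p = 0.00991) and CEBPG, a dimer partner of ATF4, at -0.66 (SE 0.119, edgeR adjusted p = 0.0178). The enzymes PYCR1, SHMT2 and MTHFD2 fell, at -1.01 (SE 0.156, edgeR adjusted p = 0.013), -0.69 (SE 0.182, edgeR adjusted p = 0.0409) and -0.58 (SE 0.104, edgeR adjusted p = 0.018). So did the transporter subunits SLC7A5 and SLC3A2, at -0.56 (SE 0.122, edgeR adjusted p = 0.0266) and -0.41 (SE 0.0976, edgeR adjusted p = 0.0324), and the tRNA synthetases AARS1, EPRS1 and CARS1, at -0.91 (SE 0.202, edgeR adjusted p = 0.0279), -0.47 (SE 0.121, edgeR adjusted p = 0.0403) and -0.70 (SE 0.108, edgeR adjusted p = 0.0129), while ALDH18A1, at the entry to proline synthesis, rose by 0.49 (SE 0.129, edgeR adjusted p = 0.0404). ATF4 at -0.32 (SE 0.0966, edgeR adjusted p = 0.0558), ASNS at -1.396 (SE 0.425, edgeR adjusted p = 0.058), CHAC1 at -1.37 (SE 0.543, edgeR adjusted p = 0.104) and NUPR1 at -4.36 (SE 1.27, edgeR adjusted p = 0.0521) did not pass. The NUPR1 value rests on the WT clone libraries, at 14.04 and 13.5 CPM, since the parental library was at 0.985 CPM and the KO libraries at 0.288 and 0.618 CPM. Both KO libraries lay below all 3 controls for 32 members, against 31% of genes, and above them for ALDH18A1 and SLC1A5, against 30.5%.

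Within experiment 2, edgeR called 0 members, against 1.83% of genes called higher and 1.86% called lower. At an unadjusted p under 0.05 there were 17 (23.7% of genes), and the median was 0.52 against 0.03 over all genes. ASNS was at 2.01 (SE 0.576, edgeR adjusted p = 0.0988), TRIB3 at 2.53 (SE 0.877, edgeR adjusted p = 0.145), CHAC1 at 2.16 (SE 0.684, edgeR adjusted p = 0.122), and PSAT1, of serine synthesis, at 1.12 (SE 0.266, edgeR adjusted p = 0.0641). The cystine transporter SLC7A11 was at 0.82 (SE 0.196, edgeR adjusted p = 0.066), ATF4 at 0.10 (SE 0.200, edgeR adjusted p = 0.804) and DDIT3 at 0.56 (SE 0.398, edgeR adjusted p = 0.423). All 3 KO libraries lay above all 3 controls for 13 members, against 13.7% of genes, and below them for 1, WARS1, against 19.4%. Without library 2, which sat nearest to the controls, 28 members lay above all controls, where 19.5% of genes did. It was 13 members without library 3 (17.1% of genes) and 14 without library 5 (23.7% of genes). Without library 5, edgeR called 10 members, all higher (ASNS, CEBPG, GARS1, MTHFD2, NARS1, PSAT1, SLC7A11, TARS1, VLDLR and XPOT), where 19.7% of genes were called, and without library 2 it called 4 (ASNS, CHAC1, GARS1 and PSAT1), where 3.34% were. Over all genes 494 were called, with 15 and 20 called without WT clone library 1 or 2, 149 without the parental library and 95 without library 3. By library, the median distance of the members from the mean of the controls was 0.44 in number 3, 0.69 in number 5 and 0.02 in number 2. In number 5, 15 of 39 members were more than 2-fold above the controls' mean, where 15.9% of all genes were.

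The difference between the STAG2 KO effects of experiments 2 and 1 was tested as a term of its own. With edgeR no member was called, nor was any gene (0%), while 31 members had an unadjusted p under 0.05, as did 30.6% of genes, and DESeq2 called 22, against 16% of the genes it gave an adjusted p. Those 22 were ASNS, ATF3, CARS1, CEBPG, CHAC1, DDIT3, DDIT4, EPRS1, GARS1, IARS1, LARS1, MTHFD2, NUPR1, PSAT1, PSPH, SESN2, SHMT2, SLC7A11, SLC7A3, STC2, VLDLR and XPOT. The median difference was 1.05 over the members and 0.09 over all genes, and 37 of 39 were higher in experiment 2. TRIB3 differed by 5.10 (SE 1.21, edgeR adjusted p = 0.0764), ASNS by 3.43 (SE 0.818, edgeR adjusted p = 0.0764), CHAC1 by 3.55 (SE 1.01, edgeR adjusted p = 0.0859), DDIT3 by 2.09 (SE 0.589, edgeR adjusted p = 0.0848) and ATF4 by 0.43 (SE 0.242, edgeR adjusted p = 0.237). These miss the threshold with edgeR, and libraries moved the count: 23 members were called without library 2 of experiment 2, 12 without library 5 of experiment 2 and 2 (VLDLR and WARS1) without library 5 of experiment 1. Over all genes these counts were 1440 (10.5%), 757 (5.54%) and 309 (2.24%), and 9 without the parental library of experiment 1. For 12 members, among them ASNS, ATF3, CHAC1, PSAT1, MTHFD2 and VLDLR, the KO libraries lay below all controls in experiment 1 and above all controls in experiment 2, as did 2.64% of all genes (359). TRIB3 overlapped between the experiments in the KO libraries, at 92.9 and 45.4 CPM and at 61.7, 417 and 39.9 CPM, whereas its controls did not.

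**Figure D2:**
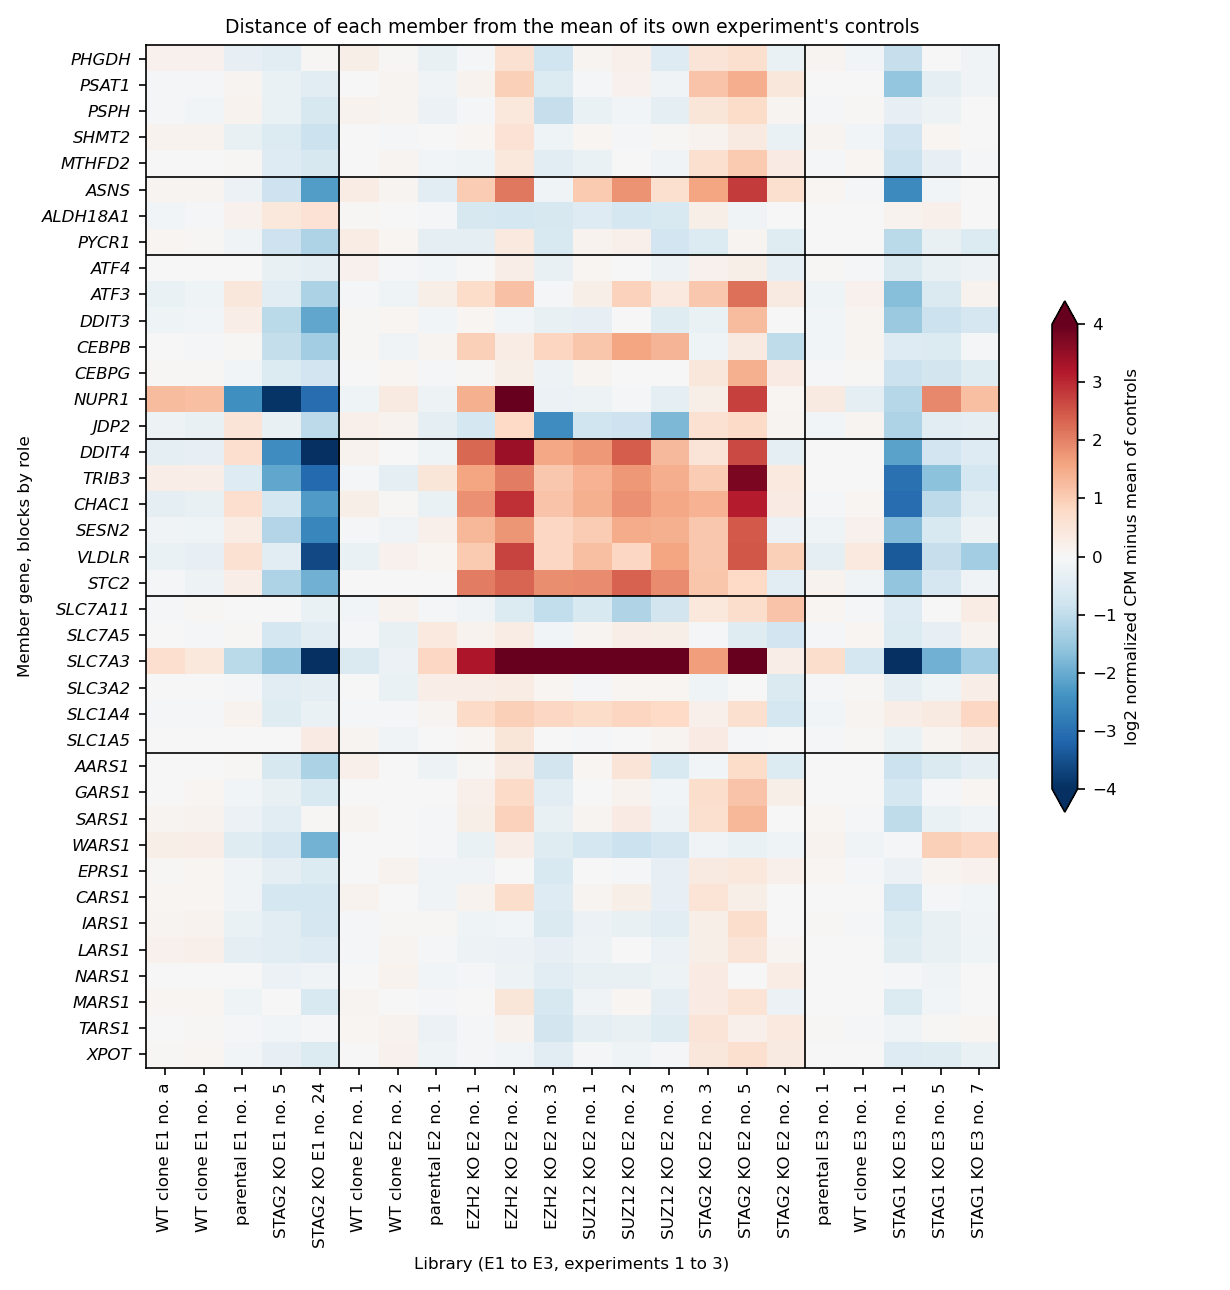
Heat map of the log2 distance of each of the 39 members (vertical, in blocks by role) from the mean of the controls of the same experiment in each A673 library of experiments 1 to 3 (horizontal), with red above and blue below. Members' medians were -0.45 and -0.66 in the STAG2 KO libraries of experiment 1, 0.44, 0.69 and 0.02 in those of experiment 2, and -0.80 in the library labelled STAG1 KO, number 1.

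Other lists of stress genes were read in the pooled STAG2 KO fit, beside the 12.4% of genes called in it. BCAT1 and SLC38A1 rose among 24 other ATF4 targets, with log2 fold changes of 0.47 and 0.52. None of 14 genes of eIF2, its kinases and phosphatases passed with edgeR, with 3 at an unadjusted p under 0.05, and neither did any of 9 other cytosolic synthetases (0 unadjusted) or 14 ER chaperone genes (2 unadjusted). Of 10 NRF2 targets, GCLC rose by 0.66, and its list's median was 0.50. Of 17 mitochondrial synthetases MARS2 rose and SARS2 fell, and of 10 immediate early genes DUSP1 and JUN rose and EGR2 fell.

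In the EZH2 KO clones 6 members rose, against 12% of all genes called higher, and 1 fell, against 3.69% called lower (15.7% in all, 2377 of 15130). There were 11 members at an unadjusted p under 0.05 (30.2% of genes), and DESeq2 called 10 (19.5% of genes), with CEBPB, NUPR1 and SESN2 beside these 7. In a fit of the EZH2 KO clones and controls alone, CEBPB, SESN2 and TRIB3 were called beside the 7 (10 members, and 24% of genes). SLC7A3 and NUPR1 met the filter on low counts only with the KO libraries of experiment 2, not in the controls, so being tested required a higher value in some KO libraries and their levels are given as a description; without SLC7A3, 5 members rose. The median log2 fold change was 0.18 over the members, 0.04 over all genes, 2.05 over the 6 stress effectors and -0.07 over the 12 genes of tRNA charging and export. All these values share the 3 controls of experiment 2 with the SUZ12 KO and STAG2 KO comparisons.

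Among the effectors, STC2 was at 11.9, 11.8 and 11.6 CPM in the controls and 48.8, 59.4 and 43.3 CPM in the EZH2 KO clones, a log2 fold change of 2.19 (SE 0.327, edgeR adjusted p = 0.0013). DDIT4 was at 71.5, 154 and 42.6 CPM in the clones and 16.03, 14.6 and 12.8 CPM in the controls, a log2 fold change of 2.72 (SE 0.712, edgeR adjusted p = 0.0243). All 3 clones lay above all 3 controls for both genes. The share of all genes lying outside the controls was not counted for EZH2 KO or SUZ12 KO. Lack of overlap is therefore only a description of the named genes. CHAC1, at 21.3, 45.7 and 13.3 CPM against 7.02, 6.18 and 4.93 CPM, rose by 2.24 (SE 0.637, edgeR adjusted p = 0.0346). VLDLR, a lipoprotein receptor, was at 6.46, 20.7 and 5.55 CPM against 2.55, 3.51 and 3.27 CPM and rose by 1.90 (SE 0.564, edgeR adjusted p = 0.0409). Clone 2 was the highest of the 3 for these 4 genes, and no clone overlapped the controls. TRIB3, at 91.7, 126 and 64.2 CPM, lay above all controls in all 3 clones as well but did not pass, at 1.66 (SE 0.699, edgeR adjusted p = 0.133), nor did SESN2, at 33.2, 45.9 and 23.6 CPM and also above all controls, with 1.44 (SE 0.518, edgeR adjusted p = 0.0829).

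SLC7A3, a carrier of cationic amino acids, was close to the floor of measurement in the controls, at 0.227, 0.319 and 0.776 CPM (4, 5 and 14 counts), and at 4.64, 13.0 and 9.67 CPM in the EZH2 KO clones, a fitted log2 fold change of 4.43 (SE 1.07) over so low a control. SLC1A4, a carrier of neutral amino acids, went from 94.8, 92.8 and 104 CPM to 164, 188 and 173 CPM, a log2 fold change of 0.94 (SE 0.251, edgeR adjusted p = 0.0268). Neither overlapped the controls. ALDH18A1 was the member that fell, from 197, 188 and 184 CPM to 120.2, 117 and 122 CPM, with -0.58 (SE 0.115, edgeR adjusted p = 0.00619), and all 3 clones lay below all controls. ASNS was at 6.42, 13.9 and 2.80 CPM, above all controls in clones 1 and 2 only, and did not pass, at 1.37 (SE 0.636, edgeR adjusted p = 0.172). ATF4, at 529, 623 and 426 CPM, had a value of 0.11 (SE 0.190, edgeR adjusted p = 0.735), and DDIT3, at 30.2, 26.4 and 23.1 CPM, of -0.01 (SE 0.330, edgeR adjusted p = 0.982); both overlapped the controls. Calls other than STC2 and ALDH18A1 depended on single libraries. Without WT clone library 1, or without WT clone library 2, only these 2 were called (7.52% and 7.89% of genes); without the parental library, or without EZH2 KO clone 2, SLC7A3 was called beside them (9.28% and 10.2% of genes). Without clone 1, CHAC1 and SLC1A4 were lost and 5 members were called (11% of genes), and without clone 3, SLC1A4 was lost and NUPR1 gained (11.4%). The log2 fold changes without clone 2 were 2.05 for DDIT4, 1.59 for CHAC1 and 1.03 for VLDLR, those of SLC1A4 were 0.87 to 0.98 with any 1 library left out, and that of SLC7A3 was 4.07 to 5.11. The count over all genes was 1169 without WT clone library 1, 1227 without WT clone library 2, 1441 without the parental library and 1571 without clone 2.

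In the SUZ12 KO clones 4 members rose, against 14.7% of all genes called higher, and 3 fell, against 5.87% called lower (20.6% in all, 3112 of 15130). There were 12 members at an unadjusted p under 0.05 (34.2% of genes), and DESeq2 called 10 (24% of genes), with CHAC1, DDIT4 and SESN2 beside these 7. In a fit of the SUZ12 KO clones and controls alone, 14 members were called, where 30.4% of genes were: these 7 and ASNS, CHAC1, DDIT4, JDP2, SESN2, TRIB3 and VLDLR. Medians were 0.08 over the members, 0.01 over all genes and 1.62 over the stress effectors. STC2 was at 44.1, 61.2 and 43.7 CPM in the clones, above all controls, with a log2 fold change of 2.15 (SE 0.326, edgeR adjusted p = 0.000985). SLC7A3 was at 16.9, 24.6 and 13.4 CPM, again above all controls, with a fitted value of 5.42 (SE 1.103) over the same low control, and without it 3 members rose. CEBPB, a C/EBP factor that pairs with ATF4, was at 91.1, 79.3 and 94.5 CPM in the controls and 189.9, 264 and 225 CPM in the clones, and rose by 1.43 (SE 0.291, edgeR adjusted p = 0.0052). SLC1A4, at 159.9, 177 and 170.2 CPM, rose by 0.87 (SE 0.250, edgeR adjusted p = 0.0295). ALDH18A1 fell to 133, 117 and 125 CPM, with -0.53 (SE 0.115, edgeR adjusted p = 0.00742), and lay below all controls in all 3 clones.

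The cystine transporter SLC7A11 was at 129, 152 and 135 CPM in the controls and 90.6, 60.3 and 83.2 CPM in the SUZ12 KO clones, a log2 fold change of -0.76 (SE 0.236, edgeR adjusted p = 0.0404). WARS1, the tryptophanyl-tRNA synthetase, was at 235, 233 and 226 CPM and 141, 127 and 145 CPM, with -0.68 (SE 0.169, edgeR adjusted p = 0.0149). Neither group overlapped. The other 5 effectors did not pass. They lay above all controls in all 3 clones, but how many of all genes did so was not counted. TRIB3, at 81.3, 102 and 83.4 CPM, had 1.56 (SE 0.697, edgeR adjusted p = 0.139), CHAC1, at 16.2, 21.6 and 17.7 CPM, 1.69 (SE 0.628, edgeR adjusted p = 0.0796), and DDIT4, at 48.1, 78.1 and 35.4 CPM, 1.97 (SE 0.696, edgeR adjusted p = 0.0668). SESN2, at 27.0, 37.2 and 35.7 CPM, had 1.39 (SE 0.518, edgeR adjusted p = 0.08), and VLDLR, at 7.18, 5.54 and 9.39 CPM, 1.32 (SE 0.558, edgeR adjusted p = 0.12). ASNS, at 6.60, 11.1 and 4.88 CPM in the clones and also above all controls, had 1.31 (SE 0.635, edgeR adjusted p = 0.17), and ATF4 and DDIT3 had 0.03 (SE 0.190, edgeR adjusted p = 0.923) and -0.20 (SE 0.330, edgeR adjusted p = 0.702). SLC1A4 and SLC7A11 were not called when any 1 of the 6 libraries was left out, with log2 fold changes of 0.81 to 0.91 and -0.88 to -0.60, and WARS1 was not called without clone 2, at -0.62. In that fit 4 members were called, with 12.8% of genes, and 5 in each of the others, with 12.1% to 20.9%. The count over all genes was 1874 (12.1%) without WT clone library 1, 1907 (12.3%) without WT clone library 2 and 1971 without clone 2.

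Compared with each other, EZH2 KO and SUZ12 KO differed in no member with edgeR (0 of 39), where 0.00661% of genes were called, which is EZH2 itself. At an unadjusted p under 0.05 there were 2, NUPR1 and WARS1, with log2 differences of 3.19 and 0.63, where 4.16% of genes were, and DESeq2 called 0 members (0.148% of genes). The median difference was 0.14 over the members and 0.01 over all genes. CHAC1 differed by 0.56 (SE 0.603), TRIB3 by 0.10 (SE 0.677), ASNS by 0.06 (SE 0.616), DDIT3 by 0.18 (SE 0.330) and ATF4 by 0.08 (SE 0.190). With clone number as a block, ASNS was at -0.14 and 0 members and 0 genes were called, and without SUZ12 KO clone 3, 2 genes were. A threshold passed in only 1 of the 2 genotypes, as for DDIT4 or CEBPB, is thus not shown to be a difference between them. NUPR1, a small stress-induced chromatin protein, was at 0.453, 0.701 and 0.443 CPM in the controls, 1.58, 9.93 and 0.427 CPM in the EZH2 KO clones and 0.436, 0.496 and 0.376 CPM in the SUZ12 KO clones, so that EZH2 KO clone 2 alone made most of that difference. Other lists were read beside the 15.7% of genes called in EZH2 KO and 20.6% in SUZ12 KO. Of the 24 other ATF4 targets, ADM2, CEBPA and TRIB1 rose in both genotypes, by 2.17, 3.36 and 1.21 in EZH2 KO and by 2.11, 3.94 and 1.45 in SUZ12 KO on the log2 scale. GOT1 rose and BCAT1 and SLC38A1 fell in SUZ12 KO. EIF2AK3, the ER stress kinase PERK, rose by 0.89 in EZH2 KO, PPP1R15B rose by 0.42 and EIF2AK1 fell, at -0.33, and none of this list of 14 passed in SUZ12 KO with edgeR (4 at an unadjusted p under 0.05). The ER chaperone HYOU1 fell in both, at -0.71 and -0.72, and EGR2 was the immediate early gene that rose in both, by 1.86 and 1.65. Of 10 NRF2 targets OSGIN1 rose in SUZ12 KO, by 1.61, and 0 passed in EZH2 KO with edgeR (1 unadjusted); 0 of the 9 other cytosolic and 17 mitochondrial synthetases passed in either (1 of each list unadjusted).

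**Figure D3:**
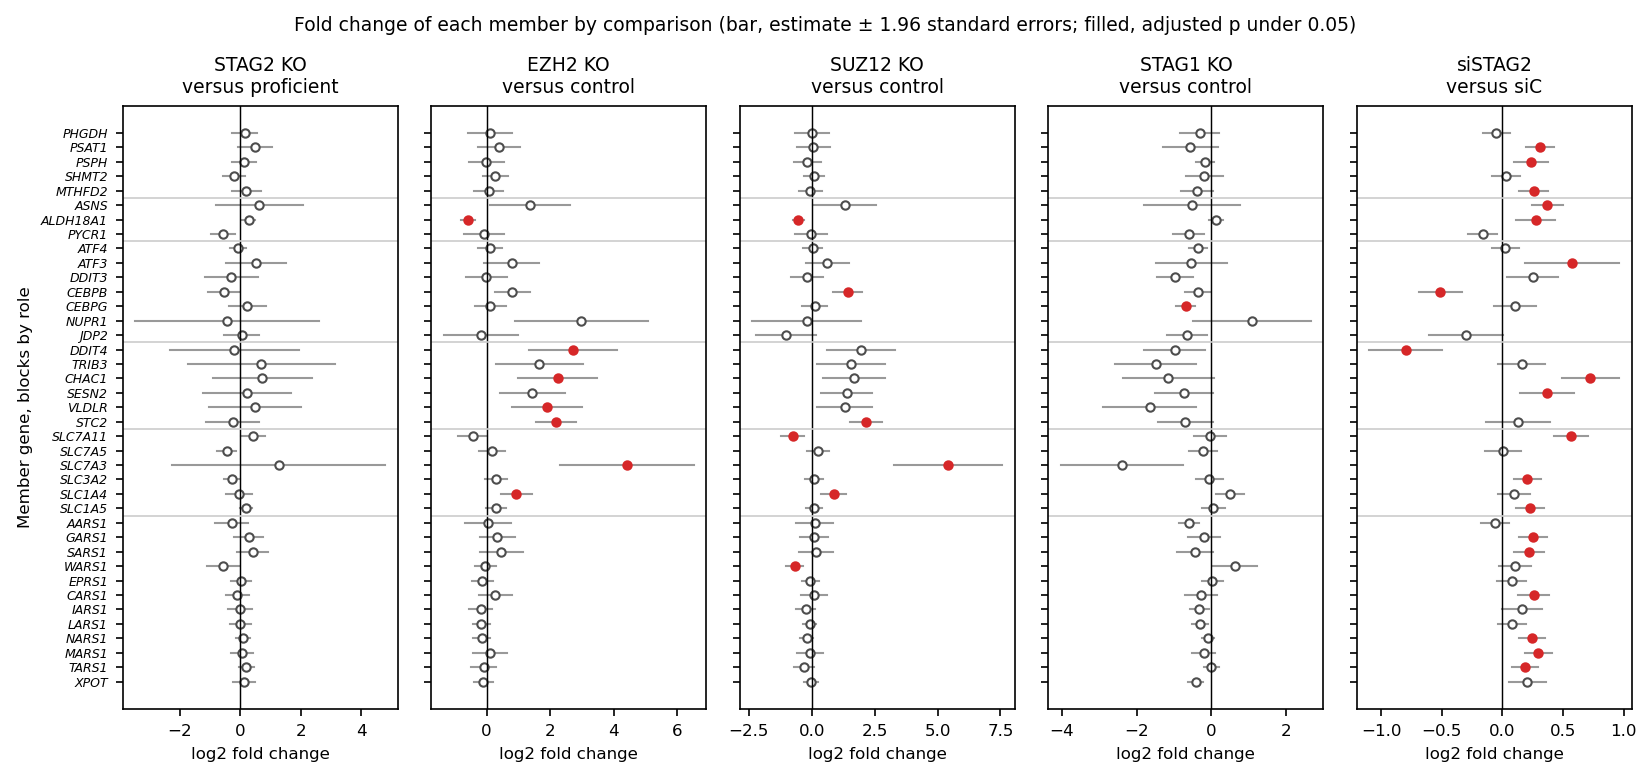
Fitted log2 fold change of each member (points) with its 95% interval from the standard error (bars) in 5 comparisons, filled red at an adjusted p under 0.05 and open otherwise, on a scale of its own in each panel. STAG2 KO has 0 filled points, EZH2 KO and SUZ12 KO 7 each, STAG1 KO 1 and siSTAG2 19.

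In experiment 3, CEBPG was the 1 member that passed with edgeR in the STAG1 KO libraries. It was at 147 and 139 CPM in the WT clone and the parental line and 78.4, 85.6 and 102 CPM in libraries 1, 5 and 7, with a log2 fold change of -0.69 (SE 0.126, edgeR adjusted p = 0.0391). The background was 2.5% of genes called lower and 2.77% called higher (5.27% in all, 757 of 14373). There were 12 members at an unadjusted p under 0.05 (24.9% of genes), and DESeq2 called 4 (13.5% of genes), AARS1, CEBPG, DDIT3 and XPOT. The fitted value was negative for 32 of 39, of which 1 passed, with a median of -0.36 against 0.00 over all genes, and of -1.07 over the stress effectors. Directions here include the library labelled STAG1 KO, number 1, in which STAG1 was at the level of the controls and which lay farthest from them: the members' median distance was -0.80 in number 1, -0.30 in number 5 and -0.11 in number 7.

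TRIB3 was at 158 and 162 CPM in the controls and 19.9, 51.6 and 98.3 CPM in libraries 1, 5 and 7, with -1.49 (SE 0.557, edgeR adjusted p = 0.166). CHAC1 was at 41.8 and 37.7 CPM and 4.73, 19.3 and 29.4 CPM, with -1.15 (SE 0.618, edgeR adjusted p = 0.303). DDIT3 was at 37.7 and 32.3 CPM and 12.3, 19.4 and 22.0 CPM, with -0.97 (SE 0.247, edgeR adjusted p = 0.0788). For all 3 genes the KO libraries lay below both controls and number 1 was the lowest. ATF4 was at 422, 511 and 551 CPM against 619.7 and 649.9 CPM, with -0.36 (SE 0.126, edgeR adjusted p = 0.146), also without overlap. ASNS was at 2.15, 12.2 and 12.9 CPM against 12.3 and 13.7 CPM, with -0.52 (SE 0.652, edgeR adjusted p = 0.667); libraries 5 and 7 stood at the controls' level. All 3 KO libraries lay below both controls for 20 members, against 24.4% of genes, and above them for 1, SLC1A4, against 22.1%. In number 1, 15 members were more than 2-fold below the controls' mean, where 10.1% of genes were. Without number 1, 5 members were called (AARS1, CEBPG, DDIT3 and DDIT4, lower, and WARS1, higher), with a median over the members of -0.18 and values of -1.08 for TRIB3, -0.69 for CHAC1, -0.75 for DDIT3, -0.25 for ATF4 and -0.05 for ASNS. Without the WT clone library, without the parental library, or without number 5, no member was called, and without number 7, CEBPG was. The count over all genes was 1310 (9.2%) without number 1, 264 (1.86%) without number 5, 326 (2.31%) without number 7 and 0 without either control. Of 14 ER chaperone genes 5 rose in STAG1 KO, CALR, CRELD2, DNAJC3, HSP90B1 and HSPA5, where 2.77% of genes did. The other 9 did not pass, 4 of them with negative values, HERPUD1 at -0.70, SEL1L at -0.12, EDEM1 at -0.11 and XBP1 at -0.064. The list's median was 0.62, and the list's median distance was 0.70, 0.69 and 0.42 in libraries 1, 5 and 7. HSPA5 was at 471 and 472 CPM in the controls and 829, 844 and 694 CPM in the KO libraries. Of 24 other ATF4 targets MTHFD1L rose and TSPYL2 fell, with a median of -0.52, and FOS and FOSB rose by 2.21 and 2.64. Of 10 NRF2 targets SRXN1 and ME1 rose, by 1.59 and 1.05.

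The STAG2 KO and STAG1 KO effects were compared as a contrast over experiments 1 to 3. With edgeR 0 members differed, where 6.11% of genes did (898 of 14696); at an unadjusted p under 0.05 there was 1 (19.4% of genes), WARS1 at -1.25, and DESeq2 called 0 (9.86% of genes). The median was 0.28 over the members and 0.00 over all genes. TRIB3 differed by 2.12 (SE 1.65), CHAC1 by 1.83 (SE 1.25), ASNS by 1.098 (SE 1.15), DDIT3 by 0.62 (SE 0.679) and ATF4 by 0.24 (SE 0.215), each higher in STAG2 KO. Without the library labelled STAG1 KO, number 1, they were 1.72, 1.37, 0.63, 0.42 and 0.14 in the same order, with 0 members called and a median of 0.18. Without STAG2 KO library 5 of experiment 2 those of TRIB3, CHAC1, ASNS and DDIT3 were 0.70, 0.96, 0.45 and 0.16, and without library 24 of experiment 1 those of ASNS and DDIT3 were 1.73 and 1.01. The count over all genes was 1860 (12.7%) without that library 5, 296 (2.02%) without the WT clone library of experiment 3 and 195 (1.34%) without its parental library.

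The founding WT clone was compared with the parental line over experiments 1 to 3, since all KO clones descend from it. It is 1 clone with several libraries, so this is no test of clones in general. With edgeR 0 of 39 members differed, against 2.72% of genes (385 of 14167). At an unadjusted p under 0.05 there were 3, PHGDH at 0.28, PYCR1 at 0.26 and STC2 at -0.24, where 16.4% of genes were, and DESeq2 called 0 (3.96% of genes). Medians were 0.03 over the members and -0.01 over all genes. ASNS differed by 0.25 (SE 0.150), ATF4 by 0.04 (SE 0.0814), DDIT3 by -0.04 (SE 0.122), TRIB3 by 0.00 (SE 0.257) and CHAC1 by -0.29 (SE 0.223). Without the WT clone library of experiment 3, or without its parental library, 4 members were called (ATF3, NUPR1, PHGDH and SESN2), and without the parental library of experiment 1, 1 was, SLC7A3, with 3.4% of genes. The count over all genes was 953 (6.66%) without the parental library of experiment 3 and 924 (6.59%) without its WT clone library; it was 98 and 102 without WT clone library 1 or 2 of experiment 2, 211 without its parental library, and 184 and 186 without 1 or the other WT clone library of experiment 1. Among the other ATF4 targets GDF15, a secreted stress cytokine, and TRIB1 rose in the WT clone, by 1.961 and 0.63, the mitochondrial synthetase gene RARS2 rose by 0.42, and the NRF2 target NQO1 fell, at -0.68.

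Many members differed by small amounts between siSTAG2 and siC. The paper describes siC as mock transfected, so the presence of an siRNA and the loss of STAG2 cannot be told apart here. Of the 36 that reached a mean signal of 10 (NUPR1, VLDLR and SLC7A3 did not), limma called 17 higher in siSTAG2, against 9.54% of all genes called higher, and 2 lower, against 11% called lower (20.5% in all, 2476 of 12060). There were 22 members at an unadjusted p under 0.05, where 32.2% of genes were. The median log2 fold change was 0.19 over the members and 0.01 over all genes. By library, medians of the members' distance from the siC mean were 0.00, 0.04 and -0.03 in siC 1, 2 and 3 and 0.17, 0.19 and 0.15 in siSTAG2 1, 2 and 3.

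CHAC1 had a signal of 123, 141 and 107 in siC and 184, 227 and 203 in siSTAG2, a log2 fold change of 0.73 (SE 0.121, limma adjusted p = 7.28e-05). SLC7A11 went from 420.3, 406 and 411 to 574, 629 and 633, with 0.57 (SE 0.0731, limma adjusted p = 2.07e-06). ASNS went from 919, 961 and 930.3 to 1200.4, 1308 and 1134, with 0.37 (SE 0.0647, limma adjusted p = 0.000136). For these 3 genes every siSTAG2 library lay above every siC library, and how many of all genes did so was not counted. ATF3, an early stress-induced factor, went from 29.5, 43.3 and 40.6 to 56.6, 62.1 and 50.2, with 0.57 (SE 0.200, limma adjusted p = 0.0419). SESN2 rose by 0.37 (SE 0.113, limma adjusted p = 0.0212) and PSAT1 by 0.31 (SE 0.0600, limma adjusted p = 0.00047). A further 11 members rose by 0.18 to 0.30 on the log2 scale: MTHFD2 and PSPH of serine and 1-carbon metabolism, ALDH18A1, the transporters SLC3A2 and SLC1A5, and the tRNA synthetases GARS1, SARS1, CARS1, NARS1, MARS1 and TARS1. The smallest of these were TARS1 at 0.18 (SE 0.0549, limma adjusted p = 0.0182), SLC3A2 at 0.21 (SE 0.0562, limma adjusted p = 0.00978), SARS1 at 0.22 (SE 0.0647, limma adjusted p = 0.0168) and SLC1A5 at 0.23 (SE 0.0591, limma adjusted p = 0.00737). DDIT4 was lower, at 84.3, 92.7 and 68.6 against 138, 178 and 117, with -0.80 (SE 0.153, limma adjusted p = 0.000388). CEBPB was lower too, at 562, 578 and 593 against 856, 672 and 975, with -0.51 (SE 0.0903, limma adjusted p = 0.000155). Neither overlapped between the groups. ATF4 had signals of 4952, 4816 and 4742 in siC and 5244, 4928 and 4599 in siSTAG2, with 0.02 (SE 0.0573, limma adjusted p = 0.823). DDIT3 had 197, 171 and 195 and 249.6, 231 and 192, with 0.25 (SE 0.109, limma adjusted p = 0.108), and TRIB3 243, 278 and 214 and 267, 267 and 280.1, with 0.16 (SE 0.0982, limma adjusted p = 0.282); for these 3 the groups overlapped.

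Some of the smaller calls rested on single knockdown libraries. With 1 library left out, ATF3 kept its call only without siC 2, and its log2 fold change was 0.41 to 0.68 over the 6 fits. SESN2 kept its call without siC 2 or without siSTAG2 3, at 0.30 to 0.42. PSPH lost it without siC 1, siSTAG2 1 or siSTAG2 3 (0.21 to 0.27), ALDH18A1 without siC 2 or siSTAG2 1 (0.23 to 0.30), SLC1A5 without siC 3 or siSTAG2 3 (0.18 to 0.25), SARS1 without siC 3, siSTAG2 1 or siSTAG2 2 (0.15 to 0.29), and TARS1 without siSTAG2 1 or siSTAG2 2 (0.16 to 0.20). DDIT3 was called without siSTAG2 3, at 0.36, and PYCR1 and XPOT without siC 2. The count ranged from 13 members without siSTAG2 1, with 17% of genes called, to 20 without siC 2, with 21%; in the other 4 fits 14.5% to 15.4% of genes were called. Other lists were read in the fit with all libraries, where 9.54% of genes were called higher and 11% lower. Of 20 other ATF4 targets tested, 7 rose (BCAT1, SLC38A1, GOT1, MTHFD1L, SLC7A1, GPT2 and ATF5) and TRIB1 fell. The ER chaperones PDIA4, HSP90B1, CALR and CRELD2 fell, with log2 fold changes of -0.36 to -0.26. EIF2S3 and EIF2B5 rose among the genes of eIF2 and its kinases, YARS1 and VARS1 among other cytosolic synthetases, CARS2 among mitochondrial ones and GCLM among NRF2 targets; of 8 immediate early genes tested, EGR1, IER2, JUNB and JUN rose and EGR2 fell. The knockdown and the clones share no control library; how the effect in the knockdown differs from that in the clones was not tested.

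The isogenic pairs have 1 library per arm, so their values are given without a test. In A4573 all 39 members were lower without STAG2 than in the KI clone, and 33 of them were past 2-fold, where 14.1% of all genes were lower past 2-fold and 7.76% higher. The median log2 ratio without over with STAG2 was -1.56 over the members and 0.00 over all genes (16124). TRIB3 was at 25.5 CPM without STAG2 and 408 CPM with it, a log2 ratio of -3.997. CHAC1 was at 32.6 against 240.4 CPM, a log2 ratio of -2.88, and ASNS at 3.95 against 28.3 CPM, at -2.82. DDIT3, at 29.8 against 100.5 CPM, had -1.75. Within this pair, these genes were thus higher in the library with STAG2 restored. NUPR1 had -4.47, VLDLR -3.31, ATF3 -3.25, DDIT4 -2.85 and STC2 -2.83. ATF4, at 573 against 1007 CPM and -0.81, was among the 6 that stayed within 2-fold, with ALDH18A1, EPRS1, LARS1, NARS1 and TARS1. The other 24 past 2-fold had log2 ratios of -2.36 to -1.02: the serine and 1-carbon genes PHGDH, PSAT1, PSPH, SHMT2 and MTHFD2, with PYCR1, the factors CEBPB, CEBPG and JDP2, the effector SESN2, all 6 transporters, and AARS1, GARS1, SARS1, WARS1, CARS1, IARS1, MARS1 and XPOT. Of 25 other ATF4 targets 16 were lower past 2-fold, with a median of -1.34, while the 14 genes of eIF2 and its kinases had a median of 0.10. All 9 immediate early genes measured were lower as well, with a median of -5.84, among them FOS at -7.86 and EGR1 at -7.16. Their part in the members' difference was not tested.

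In SK-N-MC, 6 members were higher past 2-fold without STAG2, against 10.2% of all genes, and 0 were lower, against 11.4%. The median was 0.34 over the members and -0.01 over all genes (16413). NUPR1 had a log2 ratio of 3.40 from 7 counts with STAG2 and 87 without. CHAC1, at 11.7 CPM without STAG2 and 3.73 CPM with it, had 1.63, PSAT1, at 129.7 and 50.8 CPM, 1.35, and STC2, at 31.7 and 12.8 CPM, 1.30. SLC7A3 had 1.29 and the isoleucyl-tRNA synthetase IARS1 1.06. TRIB3 at 0.66, ASNS at 0.56, ATF4 at 0.05 and DDIT3 at -0.16 stayed within 2-fold. Of 10 NRF2 targets 4 were higher past 2-fold, HMOX1 by 2.62. In this pair the KO clone also had the higher leukocyte and epithelial marker sums given above, and their part was not tested.

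**Figure D4:**
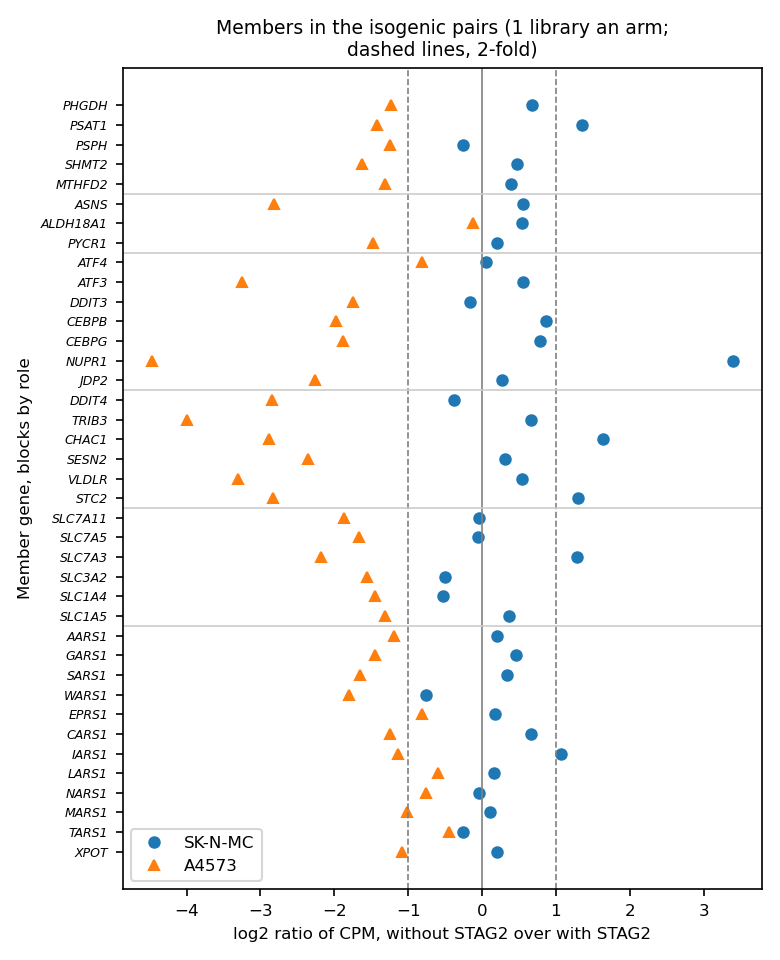
Log2 ratio of CPM without over with STAG2 for each of the 39 members in SK-N-MC (circles) and A4573 (triangles), 1 library per arm, with dashed lines at 2-fold. All 39 triangles lie below 0, with a median of -1.56, and the circles have a median of 0.34.

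Clones of 1 genotype also differed from each other. The spread of a member was taken as its highest minus its lowest log2 CPM over the clones of a genotype. Controls are libraries of the WT clone and the parental line, so their range does not measure spread between edited clones. In EZH2 KO, 16 of 39 members spread over more than 2-fold, where 20.6% of all genes did; in the 3 controls of experiment 2 it was 1 member, against 11.1% of genes. NUPR1 had a range of 4.23, JDP2 of 3.26, ASNS of 2.27, VLDLR of 1.88 and DDIT4 of 1.86, each highest in clone 2 and lowest in clone 3. Without clone 2 the count was 4, against 7.77% of genes, and without clone 3 it was 7, against 9.66%. In SUZ12 KO it was 4 members, against 18.9% of genes, with the widest ranges in ASNS (1.17), DDIT4 (1.14), AARS1 (1.12), JDP2 (1.02) and PYCR1 (0.97). Without clone 2 it was 1, against 8.63% of genes, and without clone 3 it was 0, against 7.22%.

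The STAG2 KO libraries of experiment 2 spread over more than 2-fold in 16 members, against 32.6% of genes. SLC7A3 had a range of 4.51, TRIB3 of 3.38, DDIT4 of 3.03, CHAC1 of 2.81 and SESN2 of 2.70, with number 5 highest and number 2 lowest for each. Without number 5 the count was 4, against 8.16% of genes, and without number 2 it was 10, against 22.9%. In number 5 the stress factors had a median distance of 1.26 and the effectors of 2.56 from the controls, while the ER chaperones had -1.16. In experiment 1, with 2 clones, it was 8 members, against 12% of genes, and in its 3 controls 4 members, against 8.3%. SLC7A3 had a range of 3.38 between those clones, VLDLR of 3.17, DDIT4 of 1.55, CHAC1 of 1.55 and SESN2 of 1.44, with number 5 higher than number 24. The SLC7A3 range rests on 48 and 3 counts. In STAG1 KO it was 12 members, against 15.8% of genes, and in its 2 controls 1 member, against 3.37%. NUPR1 had 3.05, SLC7A3 2.92, CHAC1 2.61, ASNS 2.53 and VLDLR 2.44. Each was lowest in the library labelled STAG1 KO, number 1, where SLC7A3 had only 1 count. Without that library 0 members spread over more than 2-fold, against 6.34% of genes. Median ranges over members and over all genes were 0.87 and 0.50 in EZH2 KO, 0.32 and 0.47 in SUZ12 KO, 0.81 and 0.69 in STAG2 KO of experiment 2, 0.37 and 0.26 in that of experiment 1, and 0.79 and 0.37 in STAG1 KO. The p-values above measure the spread between these libraries, which may be technical, and clone and library cannot be told apart with 1 library a clone.

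**Figure D5:**
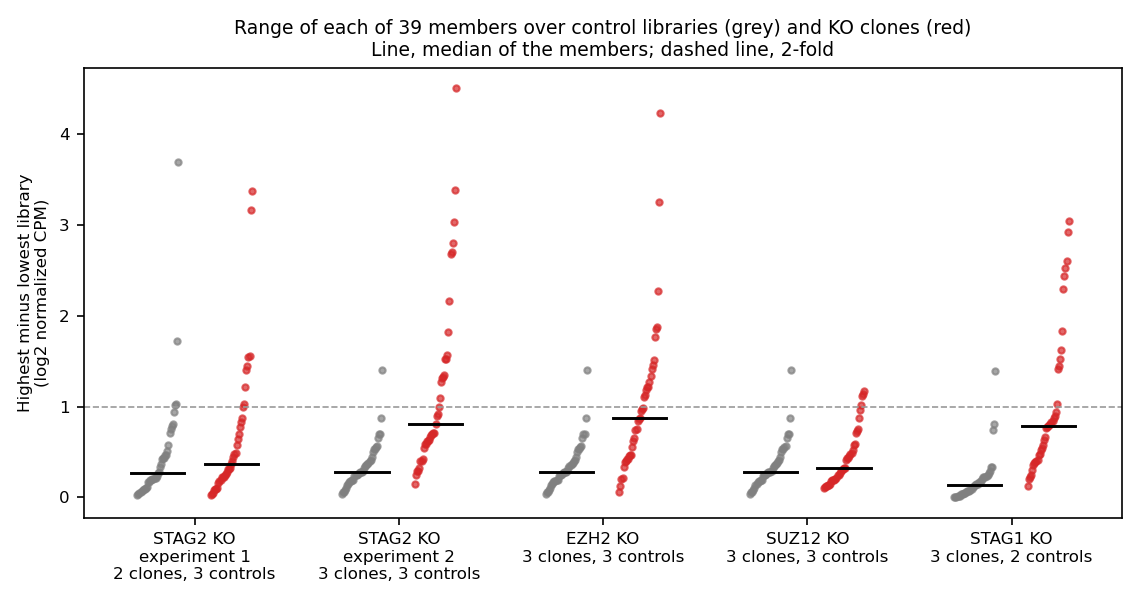
Range of each of the 39 members, as highest minus lowest log2 normalized CPM, over the control libraries (grey) and over the KO clones (red) of each genotype, with a line at the median and a dashed line at 2-fold. Over 2-fold were 8 and 16 members in STAG2 KO of experiments 1 and 2, 16 in EZH2 KO, 4 in SUZ12 KO and 12 in STAG1 KO.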

How the data were processed

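RNA was sequenced in 32 libraries of Ewing sarcoma lines. According to the methods, the authors made non-directional oligo-dT libraries and aligned reads to hg38 with Bowtie 0.12.7 inside TopHat 2.0.0 and with SAMtools 0.1.16. The deposited values of the clones and the isogenic pairs are a count of reads per gene symbol. Those of the knockdown are a normalized signal per Ensembl gene: the authors scaled each library's counts by a single factor of unstated origin, and whole reads could be recovered. No column of per-sample values was omitted.

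The 39 members and all other lists were chosen with earlier results of these data known. In R 4.3.3, edgeR 4.0.16 was run with TMM factors, filterByExpr by genotype and the quasi-likelihood test; all 39 members passed the filter, NUPR1 and SLC7A3 not through the controls alone in the fits of STAG2, EZH2 and SUZ12 KO. STAG2 KO used experiments 1 and 2 with experiment as a term, EZH2 KO and SUZ12 KO 1 fit of the 12 libraries of experiment 2, and STAG1 KO experiment 3. For the knockdown, limma 3.58.1 with trend was applied to log2(signal + 1) where the mean was at least 10. A call means an adjusted p below 0.05 (Benjamini-Hochberg, all genes tested). Pairs are given as differences of log2 CPM (prior count 2), where both libraries of a pair together had 10 counts or more. DESeq2 1.42.0, other factors, filters, pseudocounts, controls and a replicate block were alternatives, and each library was left out in turn. The fits were run on simulated counts with 200 changed genes, as a check of the code. These had the same spread for every gene, no difference between experiments and no added spread between clones. How the fits behave under such spread was not tested. Every member called by edgeR or limma with all libraries was named; where more than 12 were, the 6 highest and 6 lowest log2 fold changes at least are given in full and the others by their range. DESeq2 calls were named after their values were seen. ATF4, ASNS, DDIT3, TRIB3 and CHAC1 were given in every arm, with the 5 widest ranges per genotype. Members with an unadjusted p under 0.05, those lying outside the controls and members of other lists were named after their values were seen. SEs are those of the fitted log2 fold changes.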

Additional observations from a re-analysis of the deposited data

Results flagged for a closer look

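STAG2 KO library 5 of experiment 2 stood far above the other 4 STAG2 KO libraries for 7 members. TRIB3 was at 417 CPM there, with the next library at 92.9 CPM, and DDIT4 at 89.9 CPM, with the next at 24.3. DDIT3 was at 68.1 CPM (next 28.5), ATF3 at 49.2 CPM (next 22.5) and CEBPG at 276 CPM (next 143). SLC7A3 was at 13.6 CPM (next 2.76) and NUPR1 at 4.12 CPM (next 0.630). Among the WT clone libraries of experiments 1 to 3, NARS1 was lowest in experiment 3, at 361 CPM, with the next library at 551 CPM. All other libraries of experiment 3 were as low, at 366 CPM in the parental line and 328 to 357 CPM in STAG1 KO, so the gap is not that of 1 library. A gap this wide for 1 sample arises by chance in about 1 in 20 groups, 117 groups were looked at, and the 7 members were read in the same libraries and are not independent. The 5 KO libraries come from 2 experiments whose controls differ, and the part of that in the gaps was not tested.

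The isogenic pairs differed in direction for 6 members that passed 2-fold in both, higher without STAG2 in SK-N-MC and lower in A4573. The log2 ratio in SK-N-MC minus that in A4573 was 7.87 for NUPR1, 4.51 for CHAC1, 4.13 for STC2, 3.47 for SLC7A3, 2.78 for PSAT1 and 2.20 for IARS1. With 1 library an arm, the difference between pairs was not tested.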

How the results depend on the processing

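Of the alternatives that changed a setting, 457 values of named members kept their direction and side of the threshold, 23 moved, 10 passed the threshold newly, 7 no longer passed and 14 changed sign; of other values 220 kept theirs and 24 moved. RLE factors changed no count of members called. Members called in STAG2 KO were 2 with DESeq2 (16.6% of genes) and 16 in experiment 1 alone (25.9%), or 4 there with its WT clone libraries summed (5.08%), with medians of -0.58 in experiment 1 alone and 0.52 in experiment 2 alone. They were 3 in EZH2 KO with WT clone controls only (9.28% of genes), 14 in SUZ12 KO in a fit without EZH2 and STAG2 KO libraries (30.4%), 4 in STAG1 KO with DESeq2 (13.5%) and 2, CEBPG and AARS1, without a filter (5.06%), and 22 for the difference between experiments with DESeq2 (16%). All genes called in STAG2 KO were 2621 with DESeq2.

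Signs changed in STAG2 KO without an experiment term (ASNS -0.10, TRIB3 -0.71, CHAC1 -0.32), in experiment 1 alone (ASNS -1.396, TRIB3 -2.55, CHAC1 -1.37) and in experiment 2 alone (ATF4 0.10, DDIT3 0.56). They changed for ATF4 in SUZ12 KO with WT clone controls only (-0.041), and for WT clone versus parental line for TRIB3 with DESeq2 (-0.031) and without a filter (-0.0023). In an alternative chosen after seeing the data, the WT clone libraries of experiment 1 were summed. The reason was that they differed by little more than counting error (mean chi-square per gene 1.33, against 9.41 in experiment 2). For WT clone versus parental line, DDIT3 was then at 0.000254 and TRIB3 at -0.057. Members called in the pooled STAG2 KO fit remained 0 (8.6% of genes), while within experiment 1 there were 4 (5.08% of genes). The cause of these changes was not tested.

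With 1 library left out at a time, members called ranged from 0 to 5 in STAG2 KO (7.82% to 29.6% of all genes). They ranged from 4 to 21 within experiment 1 with a control left out (4.08% to 39%) and from 0 to 10 within experiment 2 (0.109% to 19.7%). In EZH2 KO they were 2 to 7 (7.52% to 11.4%) and in SUZ12 KO 4 to 5 (12.1% to 20.9%). In STAG1 KO they were 0 to 5 with a KO library left out (1.86% to 9.2%). For WT clone versus parental line they were 0 to 4 (0.697% to 6.66%). The difference between experiments had 0 to 23, with shares of genes given above. Leaving libraries out within an experiment, and for members outside the controls and clone ranges, was chosen after seeing the data, as were other factors for these. Where an arm was left with 1 library, it was assumed to vary like the other groups. Members above every control in STAG2 KO of experiment 2 ranged from 13 to 28, and the share of all genes from 17.1% to 23.7%. Members with a clone range over 2-fold ranged from 4 to 16 in STAG2 KO of experiment 2 (8.16% to 27.2% of genes) and 4 to 15 in EZH2 KO (7.77% to 15.8%). They were 0 to 3 in SUZ12 KO (7.22% to 14.4%) and 0 to 11 in STAG1 KO (6.34% to 10.4%). Signs changed within these ranges of log2 fold change: in STAG2 KO, ASNS -0.013 to 1.27, TRIB3 -0.74 to 1.63, CHAC1 -0.14 to 1.401 and DDIT3 -0.76 to 0.10; in EZH2 KO, ATF4 -0.047 to 0.24 and DDIT3 -0.11 to 0.079; in SUZ12 KO, ATF4 -0.041 to 0.092. For WT clone versus parental line they were ATF4 -0.026 to 0.071, DDIT3 -0.16 to 0.19, TRIB3 -0.39 to 0.43 and CHAC1 -0.52 to 0.26. For EZH2 KO versus SUZ12 KO they were ASNS -0.70 to 0.46, ATF4 -0.074 to 0.21, TRIB3 -0.18 to 0.32 and CHAC1 -0.089 to 0.88, and for siSTAG2 ATF4 -0.023 to 0.072.

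Libraries with the same number did not pair in the knockdown (correlation of residuals across genes, which are not independent, 0.0257, 0.0372 and 0.00402). EZH2 KO and SUZ12 KO clones with the same number were at -0.145, 0.403 and 0.368, and those with unlike numbers between -0.442 and 0.155. With replicate number as a replicate block, limma called 21 members in siSTAG2, with PYCR1 and XPOT gained and 23.9% of genes called; for EZH2 KO versus SUZ12 KO the block gave 0 members and ASNS at -0.14. On recovered reads edgeR called 19 and 20.5% of genes. At about 10 counts or fewer, as for NUPR1 and SLC7A3 in several controls and SLC7A3 in some KO libraries, counting error alone limits folds and ranges.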
